A study of Mus musculus with 2 samples.

Results

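Levels of 33 mouse genes for lysosomal hydrolases, lysosomal membrane proteins, the vacuolar proton pump and its regulators were followed across the cells of injured spinal cord. The members are the rows of the deposited gene table whose symbol is on a list of 33, and all 33 of them were found among 31053 genes. By role they are 10 cathepsins and legumain, 7 genes for glycosidases (5), a lipase and a phosphatase, 4 genes of lipid handling and granulin, 4 membrane proteins, 6 pump genes and 2 transcription factors. Mouse spinal cord was sampled on day 5 after injury, and its cells were read as 2 single-cell libraries, one for treatment with an HDAC3 inhibitor and one for vehicle. The labels name no compound, dose, strain, sex, age or number of animals, and nothing says whether a library pools animals. HDAC3 removes acetyl groups from histones as the catalytic part of nuclear corepressor complexes.

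Lysosomes are the acidic compartments in which cells break down what they engulf and their own worn-out parts. A vacuolar ATPase pumps protons into them, soluble proteases, glycosidases and lipases work at the acid pH this gives, and glycosylated membrane proteins such as LAMP1 line the wall. After spinal cord injury, microglia and macrophages that enter from the blood take up myelin and cell debris, and both depend on lysosomes to digest it. TFEB and MITF are transcription factors of the MiT/TFE family, which bind E-box DNA of many lysosomal gene promoters.

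Values in pairs are given in the order HDAC3 inhibitor, vehicle, and ratios are HDAC3 inhibitor over vehicle. The libraries held 3423 and 2523 barcodes with 38957752 and 29726813 UMIs (unique molecular identifiers, which count captured RNA molecules), and 2954 and 2164 cells were kept, with medians of 9702 and 10245 UMIs per cell. The libraries have 10 barcodes in common. Clusters of cells were named from markers, and names end in "-like" because they rest on markers alone. Libraries were compared in the 6 classes that had 100 cells or more on both sides, and levels were described in 12 classes that had 20 or more. A level is given as CPM, the UMIs of a gene per 1000000 UMIs of the class. With 1 library per group there is no replicate check and no test, so the libraries and not the conditions are compared, and all 95% intervals (exact Poisson for levels, conditional binomial for ratios, Clopper-Pearson for shares) cover counting error only. A range after a ratio is its 95% interval. A gene counts as measured in a class where both libraries together hold 20 or more of its UMIs, and is called higher or lower there at 1.5-fold or more.

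The 33 genes took their largest share of RNA in the 2 main classes of phagocytes. They made up 5.30% and 5.26% of all UMIs of monocyte/macrophage-like cells (551 and 291 cells) and 4.06% and 4.63% of those of microglia-like cells (460 and 483 cells). Border-associated macrophage-like cells, which line meninges and vessels, came next with 1.89% and 1.90%. No other class of at least 20 cells in each library reached 1% in either library. Oligodendrocyte-like cells had 0.720% and 0.726% and fibroblast-like cells 0.795% and 0.721%, and the intervals of these neighbours in the order overlapped in the vehicle library. Neutrophil-like cells, also phagocytes, were at the low end with 0.306% and 0.268%, beside 0.341% and 0.358% in endothelial-like cells. Over all kept cells the share was 2.78% and 2.80%. Most of the share in the 2 main phagocyte classes came from cathepsins and legumain. They gave 3.53% and 3.47% of UMIs in monocyte/macrophage-like and 3.03% and 3.49% in microglia-like cells. The pump genes gave 0.080% and 0.090% in the former and 0.046% and 0.051% in the latter class.

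**Figure D1:**
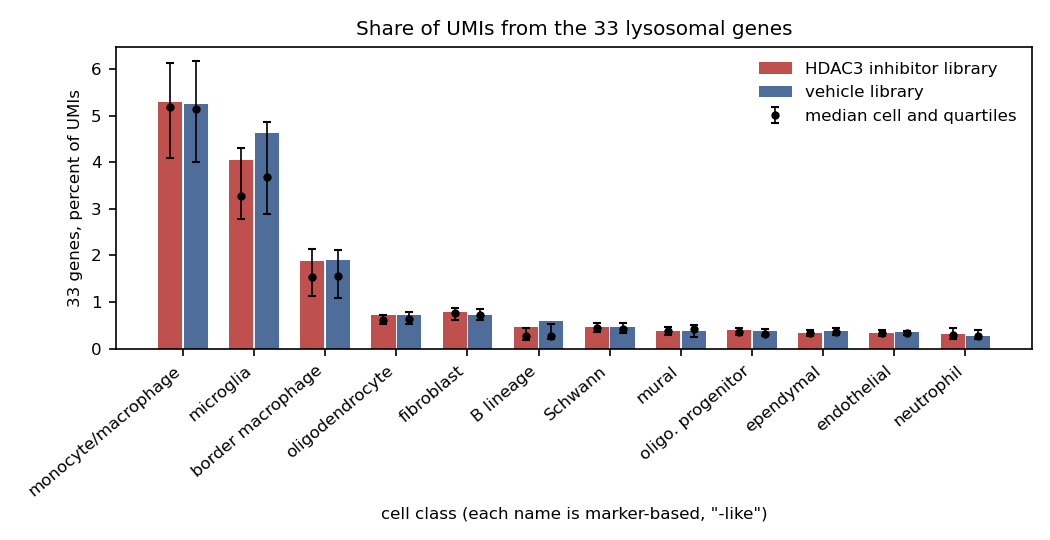
Bars give the summed UMIs of the 33 genes as a percent of all UMIs of each of 12 cell classes in each library, and black points give the median cell with its quartiles. Monocyte/macrophage-like and microglia-like cells stand above 4% in both libraries, border-associated macrophage-like cells lie near 1.9%, and the other classes lie below 1%.

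Promoters of the members were read for the letters that MiT/TFE factors bind. RefSeq promoter entries (GRCm38.p6, 250 bases before to 50 after a gene start) matched 28 of the 33 genes. The palindrome CACGTG stood in 8 of these 28 (28.6%), namely Atp6v0d1, Atp6v1a, Ctsa, Ctsd, Ctsl, Glb1, Lamp1 and Lgmn, against 8.09% of 27025 genes and 12.4% of the 8151 genes with an entry that were measured in microglia-like cells. The longer CLEAR palindrome, which is CACGTG with GT before it and AC after it, stood in 0 of 28, beside 0.370% of all genes. This exact string is too rare over all genes for 0 of 28 to set the members apart. The E-box TCACATG, read also as CATGTGA on the other strand and unable to share letters with CACGTG, stood in 5 of 28 (17.9%; Acp5, Atp6v0c, Ctss, Grn and Lgmn), against 4.50% of all genes and 2.91% of those measured in microglia-like cells. TCACATG and CATGTGA can overlap each other. A match is a description of these letters and not a measured site. The Lamp1 promoter held CACGTG at 4 places, 15, 28, 45 and 61 bases before the start. The following windows, 1 for each of 6 genes from 4 of the role groups, are given 5′ to 3′ on the strand of the gene with CACGTG in capitals.
Lamp1 (chr8:13159088-13159117, plus strand): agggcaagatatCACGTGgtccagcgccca
Glb1 (chr9:114401018-114401047, plus strand): ctgcttctgagtCACGTGgcctacagaggc
Lgmn (chr12:102439124-102439153, minus strand): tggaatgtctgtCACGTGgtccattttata
Ctsl (chr13:64370739-64370768, minus strand): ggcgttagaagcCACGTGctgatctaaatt
Ctsa (chr2:164833749-164833772, plus strand): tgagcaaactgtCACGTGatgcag
Atp6v1a (chr16:44139373-44139402, minus strand): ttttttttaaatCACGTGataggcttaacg

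Each gene had its own order of classes. In the HDAC3 inhibitor library 18 of the 33 genes were highest in monocyte/macrophage-like cells and 7 in microglia-like cells, and in the vehicle library these numbers were 17 and 8. The class with the highest level was the same in both libraries for 29 of 33 genes, the exceptions being Man2b2, Lamp2, Atp6v0c and Mitf. Oligodendrocyte-like cells held the highest level of 4 genes in each library. The intervals of the leading class and the next overlapped in both libraries for Man2b2, Atp6v0c, Tfeb and Mitf, and in a single library for Ctsd, Lamp2 and Atp6v0d1. These orders describe 12 classes and were not tested. The share of all genes that are highest in each class was not computed, so these counts do not set the members apart.

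Among the cathepsins, the main lysosomal proteases, Ctsb and Ctsd were highest in monocyte/macrophage-like cells. Ctsb, a cysteine protease, had 8911 and 8758 CPM there and 3534 and 4356 CPM in microglia-like cells, against 177 and 195 CPM in endothelial-like cells. Ctsd, an aspartic protease (ENSMUSG00000007891, mm10 chr7:142375911-142388038, minus strand), had 12654 and 12128 CPM in monocyte/macrophage-like, 10441 and 12012 CPM in microglia-like and 119 and 157 CPM in B lineage-like cells. Monocyte/macrophage-like and microglia-like cells had overlapping intervals for Ctsd in the vehicle library and separate ones in the HDAC3 inhibitor library. Ctsa, the protective protein that keeps β-galactosidase stable, also led in monocyte/macrophage-like cells (847 and 918 CPM). Microglia-like cells had the highest levels of Ctsl (3271 and 4586 CPM), Ctss (5961 and 6522 CPM), the carboxypeptidase Ctsz (2959 and 3080.4 CPM) and the asparaginyl endopeptidase Lgmn (2086 and 2204 CPM). Ctss, which trims the invariant chain of MHC class II, was nearly as high in monocyte/macrophage-like cells (5797 and 6081 CPM) and had 17.5 and 26.6 CPM in fibroblast-like cells.

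Ctsc and Ctsk departed from this order, and Ctsh was also high outside the phagocytes. Ctsc, the dipeptidyl peptidase that activates granule proteases, was highest in border-associated macrophage-like cells (709.6 and 871 CPM) and lower in monocyte/macrophage-like (246 and 282 CPM) than in microglia-like cells (609.7 and 554 CPM). Ctsh, an aminopeptidase, was spread over phagocytes (1023 and 954 CPM in monocyte/macrophage-like and 924 and 874 CPM in microglia-like cells), endothelial-like cells (590.2 and 589.9 CPM) and B lineage-like cells (531 and 545 CPM). Oligodendrocyte-like and Schwann-like cells held 12.1 and 9.53 CPM and 11.5 and 11.7 CPM of it. Ctsk, the collagen-cleaving cathepsin known from osteoclasts, was highest in fibroblast-like cells with 250.4 and 266 CPM, followed by oligodendrocyte-like cells with 90.9 and 86.6 CPM. Microglia-like cells had 0.754 and 0.607 CPM of Ctsk, from 4 and 4 UMIs. Thinned to 2000 UMIs per cell, 15.6% (Clopper-Pearson 95% interval 12.1 to 19.6) and 13.8% (9.28 to 19.4) of oligodendrocyte-like cells had a Ctsk UMI, against 0% in both libraries of endothelial-like cells, where the interval reached 0.904% and 1.19%. Before thinning, at medians of 10920.0 and 14834 UMIs per oligodendrocyte-like cell and 7498 and 7714 per endothelial-like cell, these shares were 52.5% and 60.1%, and 0.239% and 0.319%. The shares in oligodendrocyte-like cells lay above those in endothelial-like cells in both libraries.

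Of the glycosidases, Hexa (the α subunit of hexosaminidase A), Gusb (β-glucuronidase) and Glb1 (β-galactosidase) were highest in monocyte/macrophage-like cells, with 1161 and 1209 CPM, 268 and 268 CPM and 93.3 and 106 CPM. Man2b1, the lysosomal α-mannosidase, was highest in microglia-like cells (492 and 535 CPM). Lipa, the acid lipase that frees cholesterol from its esters, had 430.1 and 417 CPM in monocyte/macrophage-like cells and 122 and 124.6 CPM in microglia-like cells. Endothelial-like cells stood close to microglia-like cells for Lipa, with 137 and 163 CPM. Acp5, the tartrate-resistant acid phosphatase, had 261 and 232 CPM in monocyte/macrophage-like cells and 4.34 and 6.52 CPM in microglia-like cells. Border-associated macrophage-like cells had 187 and 33.8 CPM of Acp5, a level that differed widely between the libraries. In the vehicle library the second highest class for Acp5 was B lineage-like cells, with 61.0 CPM.

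Of the lipid-handling genes, Psap, Npc2 and Grn were highest in phagocytes and Npc1 was not. Psap, the precursor of the saposins that help enzymes reach sphingolipids, had 4726 and 4984 CPM in monocyte/macrophage-like cells and 730.0 and 819.7 CPM in ependymal-like cells. Npc2 had 2142 and 2188 CPM in monocyte/macrophage-like cells. Its partner in cholesterol export, Npc1, was instead highest in oligodendrocyte-like cells (237 and 196 CPM). Oligodendrocyte progenitor-like cells had 142 and 132 CPM and monocyte/macrophage-like cells 131 and 136 CPM of Npc1. Grn, which encodes progranulin, was highest in microglia-like cells (1507 and 1762 CPM). Among the membrane proteins, Lamp1 (ENSMUSG00000031447, mm10 chr8:13159161-13175338, plus strand) had 2038 and 2065 CPM in monocyte/macrophage-like and 1818 and 1855 CPM in oligodendrocyte-like cells, both above microglia-like cells (1129 and 1248 CPM). Cd68, the macrophage sialomucin, had 1252 and 1155 CPM in monocyte/macrophage-like cells, against 14.9 and 4.17 CPM in oligodendrocyte-like cells. Cd63, a tetraspanin of late endosomes, had 2324 and 2118 CPM in monocyte/macrophage-like and 1582 and 1286 CPM in fibroblast-like cells, but 13.1 and 17.1 CPM in endothelial-like cells. Endothelial-like cells thus had high Ctsh and low Cd63 beside the other classes.

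The pump genes had differing orders of classes. Atp6v1a, the catalytic subunit, had 251 and 251 CPM in monocyte/macrophage-like cells and 145 and 153 CPM in oligodendrocyte progenitor-like cells. Atp6v1b2, the B subunit of brain, was also highest in monocyte/macrophage-like cells (129 and 133 CPM). Atp6ap1, an accessory subunit, was highest in oligodendrocyte-like cells (139 and 146 CPM), and Atp6v0d1, the d subunit used by most tissues, in oligodendrocyte progenitor-like cells (199 and 220.3 CPM). In the HDAC3 inhibitor library the interval of Atp6v0d1 there overlapped that of monocyte/macrophage-like cells (167 CPM). Atp6v0d2, the d subunit of osteoclasts and some macrophages (ENSMUSG00000028238, mm10 chr4:19876841-19922605, minus strand), had 134 and 207 CPM in monocyte/macrophage-like cells. In oligodendrocyte-like, oligodendrocyte progenitor-like, Schwann-like, mural-like, fibroblast-like and B lineage-like cells it had no UMI. Thinned to 2000 UMIs, 12.8% (Clopper-Pearson 95% interval 10.1 to 15.8) and 16.5% (12.4 to 21.3) of monocyte/macrophage-like cells had an Atp6v0d2 UMI, against 0% of oligodendrocyte-like cells, where the interval reached 0.956% and 1.86%. Without thinning, at a median of 23096 and 25623 UMIs per cell, the monocyte/macrophage-like shares were 33.4% and 40.9%. Atp6v0c, the proteolipid of the membrane ring, did not pass 20.9 CPM in any of the 14 named classes, and since it has near-identical pseudogene copies its level is uncertain.

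Of the transcription factors, Tfeb was highest in oligodendrocyte-like cells (45.2 and 45.6 CPM), above monocyte/macrophage-like (18.9 and 20.8 CPM) and microglia-like cells (15.5 and 15.9 CPM). Its intervals in oligodendrocyte-like and oligodendrocyte progenitor-like cells (30.2 and 34.2 CPM) overlapped in both libraries. Across the 12 classes, the rank correlation of Tfeb with the summed level of the other members was -0.15 and -0.24. Mitf had 0.14 and 0.65, Ctsb had 0.92 and 0.87, and Npc2 had 0.90 and 0.88. The classes share a library and differ in depth, so these values only describe the order. Mitf was low throughout, with 21.3 and 24.1 CPM in monocyte/macrophage-like, 25.04 and 28.9 CPM in oligodendrocyte-like and 34.4 and 21.7 CPM in Schwann-like cells.

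**Figure D2:**
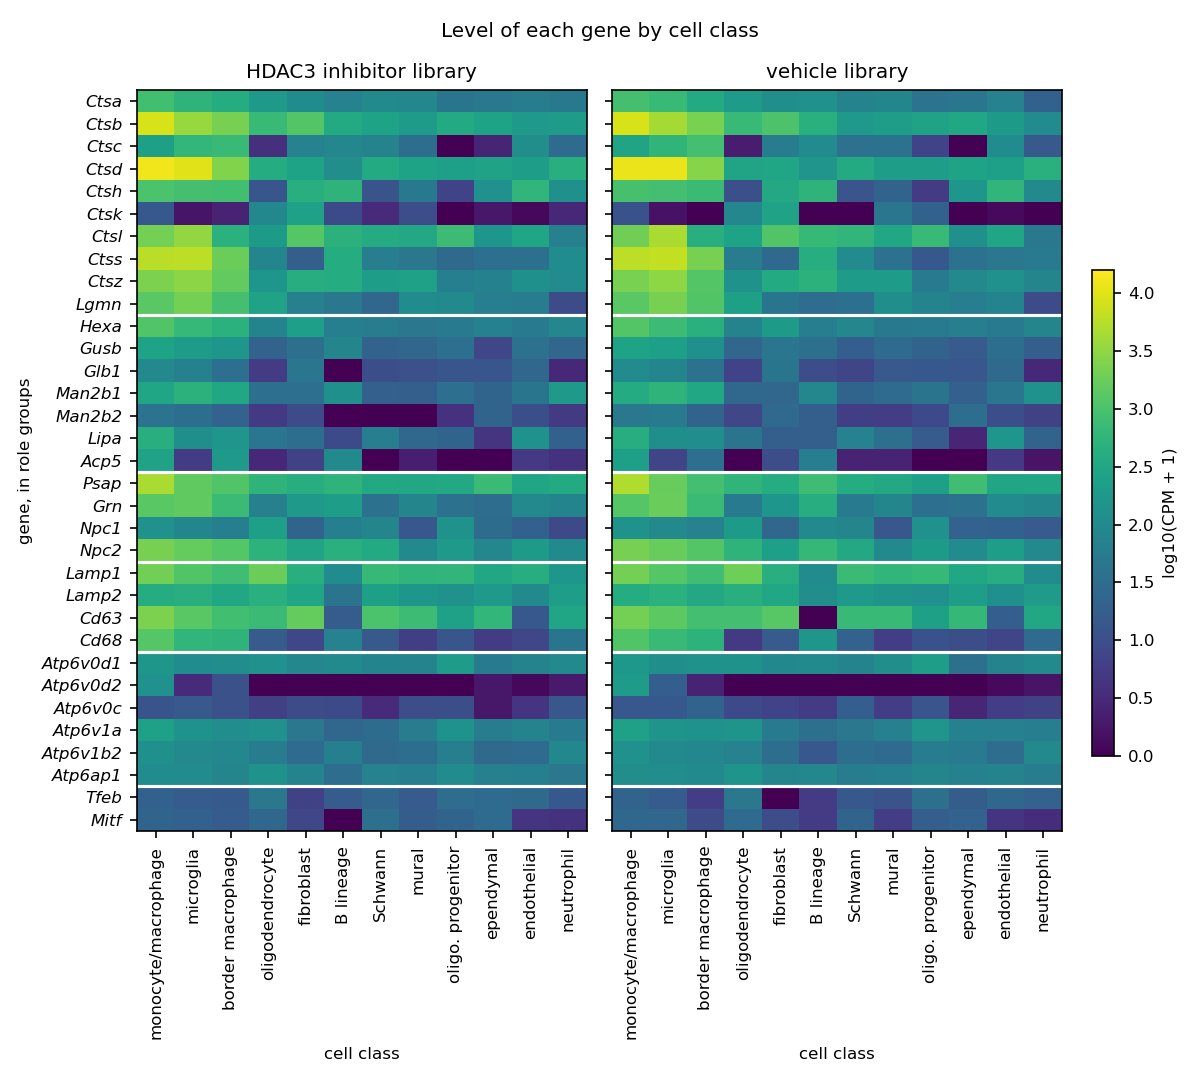
Colour gives the level of each of the 33 genes, as log10 of CPM plus 1, in 12 cell classes of the HDAC3 inhibitor library (left) and the vehicle library (right), with white lines between role groups. Most rows are brightest in the first pair of columns, while Ctsk is brightest in fibroblast-like cells, Npc1 in oligodendrocyte-like cells and Atp6v0d2 is dark outside the macrophage columns.

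Clusters inside the phagocyte classes differed widely in these genes. They were built from all genes, so the differences are a description. The larger microglia-like cluster had 376 and 389 cells, and a smaller one rich in Spp1, a secreted phosphoprotein of phagocytes, had 84 and 94. Ctsd was 7764 and 9452 CPM in the larger and 23367 and 23153 CPM in the Spp1-rich cluster. Ctsb went the same way (2573 and 3197 CPM against 8176 and 9399 CPM), and so did Cd63 (1009 and 1062 CPM against 2842 and 2882 CPM) and Lipa (74.6 and 82.3 CPM against 350.5 and 309 CPM). Ctss went the other way, with 6574 and 7238 CPM in the larger and 3004 and 3403 CPM in the Spp1-rich cluster. At this clustering the median Spp1-rich cell was also shallower, with 4565 and 4039 UMIs against 10955 and 12514. These levels are sums of UMIs, in which deep cells weigh more than the median cell. The part of depth in these levels was not tested. With the stricter cell filter the Spp1-led cluster had a median of 1.01 times the depth of the median cell of its library, and at resolution 2 it had 2.75 times. Monocyte/macrophage-like cells comprised a cluster rich in Gpnmb, a glycoprotein of lipid-laden macrophages, with 523 and 251 cells, and one rich in Plac8 and Ly6c2, markers of blood monocytes, with 28 and 40. Ctsd was 12937 and 13022 CPM in the Gpnmb-rich and 577 and 377 CPM in the Plac8-rich cluster. Acp5 (267 and 248 CPM against 20.2 and 10.8 CPM) and Cd63 (2377 and 2278 CPM against 47.2 and 23.3 CPM) were low in the Plac8-rich cluster as well. Ctsc was higher there, with 580.2 and 788 CPM against 238 and 244 CPM.

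**Figure D3:**
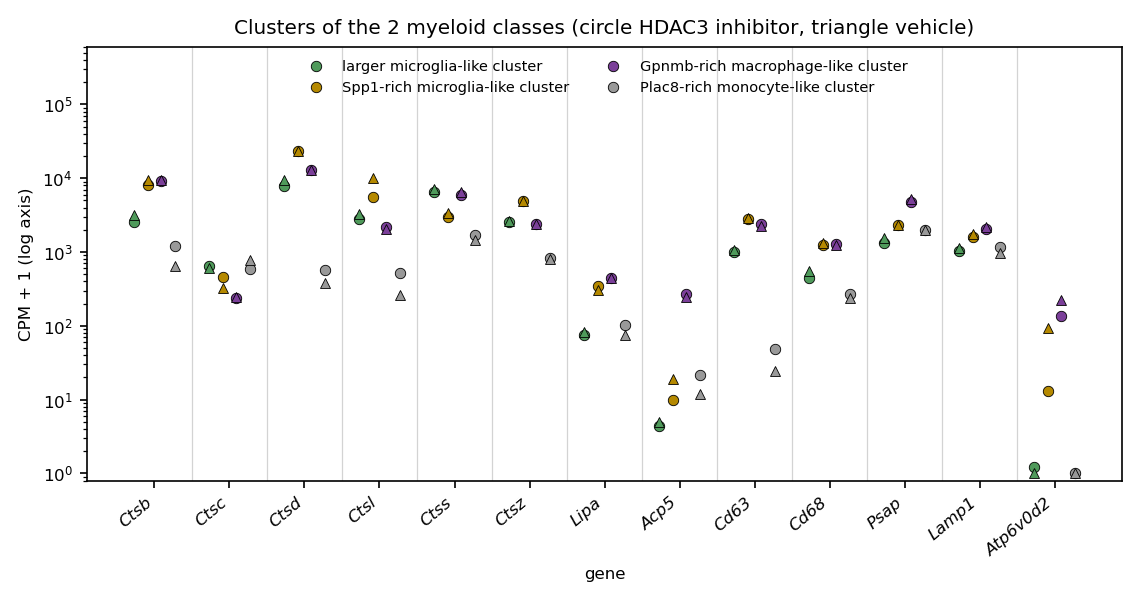
Points give the level of 13 genes, as CPM plus 1 on a log axis, in each cluster of microglia-like and monocyte/macrophage-like cells, with circles for the HDAC3 inhibitor and triangles for the vehicle library. For most genes the grey points of the Plac8-rich cluster lie lowest, Ctsc is an exception, and in the Spp1-rich cluster the triangle of Atp6v0d2 lies well above its circle.

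In microglia-like cells most of these genes were lower in the HDAC3 inhibitor library, most of them by a small amount. Of 32 measured members 29 were lower and 3 higher (Ctsc, Ctsh and Atp6v0c). Of all 10363 genes measured there, 53.4% were lower and 46.6% higher. The median log2 ratio of the members was -0.17, against -0.019 over all measured genes. The interval of the ratio lay below 1 for 21 members and above 1 for Ctsc and Ctsh. Intervals narrow as UMIs rise and were not counted over all genes, so these counts do not set the members apart. Of the measured members 3 were at least 1.5-fold lower, Atp6v0d2, Man2b2 and Acp5, where 4.77% of all measured genes were, and 0 were at least 1.5-fold higher, where 3.84% were. Among members of at least 100 UMIs 2 were lower and 0 higher by that much, beside 1.35% and 0.951% of 7357 such genes. The summed share of the members had a ratio of 0.877 (0.872 to 0.882), and the median cell held 3.29% and 3.68%. The single unmeasured member was Ctsk.

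The median log2 ratio by role was -0.13 for cathepsins and legumain, -0.23 for glycosidases, lipase and phosphatase, -0.17 for lipid handling and granulin, -0.16 for membrane proteins, -0.11 for the proton pump and -0.19 for the transcription factors. Among the proteases, 7 of 9 measured cathepsins and legumain were lower in microglia-like cells, where 53.4% of all measured genes were. Ctsl (ENSMUSG00000021477, mm10 chr13:64359337-64370890, minus strand), a cysteine endopeptidase, had 3271 and 4586 CPM from 17352 and 30226 UMIs, a ratio of 0.713 (0.700 to 0.727). This difference was larger in the Spp1-rich cluster (5633 and 10111 CPM) than in the larger cluster (2782 and 3317 CPM). Over 10 other settings the log2 ratio of Ctsl lay between -0.49 and -0.17. In the class, the 10 cells with most Ctsl UMIs in each library held 17.4% and 29.3% of them. Ctsa had 540.3 and 685 CPM, a ratio of 0.788 (0.752 to 0.826). Ctsb had a ratio of 0.811 (0.797 to 0.826) and Ctsd one of 0.869 (0.860 to 0.879). Within the larger cluster Ctsd was 7764 and 9452 CPM, a ratio of 0.821 (0.810 to 0.833), while the Spp1-rich cluster had 1.01 (0.991 to 1.03). Ctsc and Ctsh were slightly higher, with ratios of 1.10 (1.05 to 1.15) and 1.06 (1.02 to 1.10).

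All 7 glycosidases, lipase and phosphatase were lower in microglia-like cells, where 53.4% of all measured genes were. Past 1.5-fold were 2 of them, where 4.77% of all measured genes were lower by that much. Man2b2, a lysosomal α-mannosidase that acts on the core of N-glycans (ENSMUSG00000029119, mm10 chr5:36806921-36830653, minus strand), had 32.4 and 53.6 CPM from 172 and 353 UMIs. This was a ratio of 0.605 (0.502 to 0.728), and the larger cluster alone gave 0.581 (0.469 to 0.717), but with each cell thinned to 2000 UMIs the log2 ratio was -0.29, short of 1.5-fold. Acp5 rested on 23 and 43 UMIs, and its ratio of 0.665 (0.382 to 1.13) had an interval that held 1. It was short of 1.5-fold in each of the 8 other settings that could measure it. Lipa (0.979) was close to 1. All 4 genes of lipid handling and granulin and all 4 membrane proteins were lower, Grn with a ratio of 0.855 (0.831 to 0.880), Cd68 of 0.831 (0.794 to 0.870) and Lamp1 of 0.905 (0.875 to 0.936), and Npc2 (0.975) was the closest to 1. Both transcription factors had intervals that held 1, with 0.970 (0.718 to 1.31) for Tfeb and 0.796 (0.613 to 1.03) for Mitf.

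Within the pump, Atp6v0d2 stood apart in microglia-like cells. It had 2.26 and 17.1 CPM from 12 and 113 UMIs, a ratio of 0.132 (0.0662 to 0.240). These UMIs came from few cells, 6 and 9, and 1 cell of each library held 50% and 33.6% of them. Nearly all lay in the Spp1-rich cluster, with 11 and 113 UMIs there and 1 and 0 in the larger cluster. Where cells were classed by their own markers, the gene had under 20 UMIs in microglia-like cells and could not be measured. The 4 other pump genes below 1 had ratios between 0.873 and 0.935, with Atp6v0d1 alone having an interval below 1, and Atp6v0c was 1.03 (0.749 to 1.42).

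Marker sums of the microglia-like class differed between libraries as well, most of all for red cells. The 9 microglia markers summed to 3889 and 4051 CPM, with all 9 present in both libraries. The 11 monocyte/macrophage markers summed to 2571 and 3055 CPM there, 10 and 11 of them with UMIs, and 6 erythroid markers to 25.6 and 338 CPM, 5 of them with UMIs in each library. The 8 neutrophil markers summed to 214 and 323 CPM. The part of these in the ratios was not tested. Spp1-rich cells were 18.3% and 19.5% of the class. Where each cell was classed by its own markers the summed share still had a ratio of 0.895, and in the larger cluster alone the median log2 ratio was -0.16. Over 10 other settings the median stayed below 0, between -0.17 and -0.11, and was nearest to 0 with cells thinned to 2000 UMIs, where 20 of 30 measured members were lower. For genes of at least 100 UMIs the median over all genes was -0.015. It was not computed in the other settings, nor was the tally, so these values do not set the members apart.

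**Figure D4:**
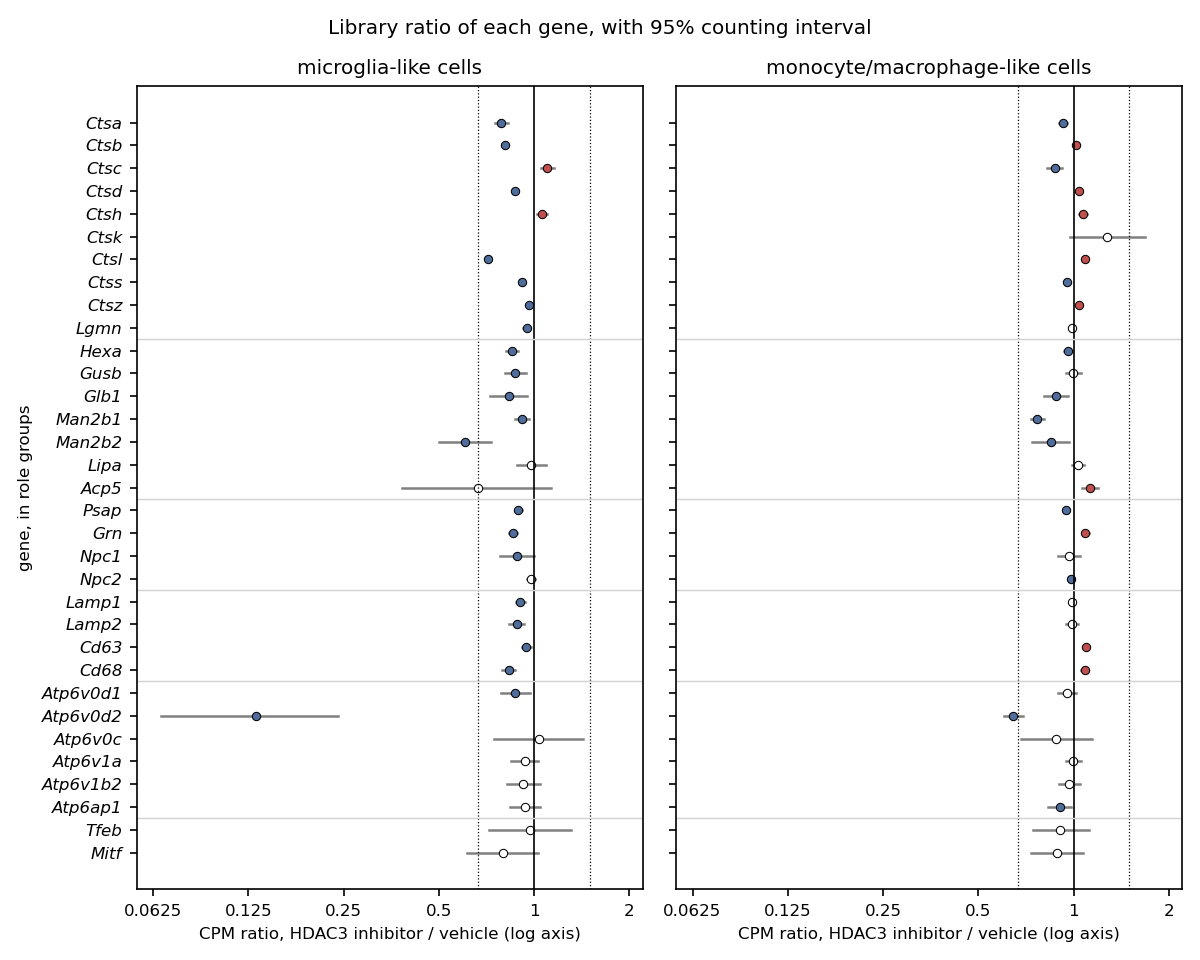
Each point gives the ratio of CPM (HDAC3 inhibitor over vehicle, log axis) of 1 gene in microglia-like (left) and monocyte/macrophage-like cells (right), with its 95% counting interval. Filled blue points have an interval below 1, filled red points one above 1 and open points one that holds 1, and dotted lines mark 1.5-fold. In the left panel 29 of 32 points lie left of 1, and in the right panel 22 of 33 do.

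In monocyte/macrophage-like cells the members lay close to equal levels. Of 33 measured members 11 were higher and 22 lower, where 49.1% of genes were higher and 50.9% lower, and the median log2 ratio was -0.03, against -0.0059 over all 10633 measured genes. With cells thinned to 2000 UMIs, where all genes were not tallied, the tally turned to 21 higher and 11 lower, with a median of 0.04. None was at least 1.5-fold higher, where 4.53% of all genes were, and 1 was at least 1.5-fold lower, where 4.91% were. Both counts were the same among members of at least 100 UMIs, beside 1.41% and 1.69% of 8091 genes. The lower gene was Atp6v0d2, with 134 and 207 CPM from 1733 and 1634 UMIs, a ratio of 0.645 (0.603 to 0.691). It came from 184 and 119 cells, and 1 cell held 11.9% and 8.20% of its UMIs. The Gpnmb-rich cluster alone gave a ratio of 0.614 (0.573 to 0.657), and the Plac8-rich cluster had 0 UMIs in each library. With each cell weighted alike the log2 ratio was -0.56 and with cells thinned it was -0.40, both short of 1.5-fold. The Plac8-rich cells were 5.08% and 13.7% of the class, so sums over the class mix both clusters in different shares.

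The next lowest were 3 of the 5 glycosidases and Ctsc. Man2b1 had 298 and 388 CPM, a ratio of 0.767 (0.732 to 0.805). In 10 other settings its log2 ratio lay between -0.48 and -0.32. Man2b2 had a ratio of 0.846 (0.738 to 0.970), Ctsc of 0.872 (0.826 to 0.921) and Glb1 of 0.880 (0.805 to 0.962). The Gpnmb-rich cluster alone gave 0.977 (0.922 to 1.04) for Ctsc. At the upper end stood Ctsk, with 13.1 and 10.3 CPM from 170 and 81 UMIs and a ratio of 1.28 (0.974 to 1.68), then Acp5 (1.13, 1.07 to 1.19), Cd63 (1.10, 1.08 to 1.12), Ctsl (1.09, 1.07 to 1.11) and Grn (1.09, 1.06 to 1.12). For Ctsl, 1 cell of the vehicle library held 10.7% of the UMIs, and where cells were classed by their own markers its log2 ratio was -0.27. All 6 pump genes were at or below 1, where 50.9% of all measured genes were lower. Their interval lay below 1 for Atp6v0d2 and Atp6ap1 (0.903, 0.831 to 0.982) alone, and intervals were not counted over all genes.

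Endothelial-like cells had no member past 1.5-fold among 31 measured, where 4.19% of 10648 genes were higher and 4.21% lower by that much, and a median log2 ratio of -0.07 against 0.0059 over all genes. Of these members 9 were higher and 22 lower, where 50.9% and 49.1% of all genes were, and the interval lay below 1 for 5 and above 1 for 0. Such intervals were not counted over all genes. With at least 100 UMIs 0 members were past 1.5-fold, beside 1.03% of 7471 genes higher and 1.1% lower. The lowest ratios were those of Atp6v0c (0.726, 0.346 to 1.51), Ctss (0.749, 0.600 to 0.936), Lgmn (0.759, 0.640 to 0.900), Cd63 (0.765, 0.529 to 1.11) and Lamp2 (0.804, 0.706 to 0.916). The highest were those of Gusb (1.15), Atp6v1a (1.10), Tfeb (1.08), Ctsc (1.07) and Cd68 (1.05), and each of these intervals held 1. For Ctss, 1 vehicle cell held 32.2% of the UMIs, and its log2 ratio was 0.02 without the top cell of each library and 1.44 with called doublets kept. With doublets kept, all cells were clustered and named anew, so membership of the class can differ by more than the called doublets. In that setting the tally turned to 20 higher and 11 lower, 4 members were at least 1.5-fold higher, and the median log2 ratio was 0.09. Shares of all genes were not computed there, and the part of the doublets was not tested.

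In oligodendrocyte-like cells the median log2 ratio of 30 measured members was -0.02, against 0.016 over all genes, with 13 higher and 17 lower, where 52.7% and 47.3% of genes were. By at least 1.5-fold 1 member was higher (5.33% of 10291 genes) and 1 lower (4.03%). With at least 100 UMIs 0 were, beside 1.27% and 0.83% of 6986 genes. The higher gene was Cd68, with 74 and 14 UMIs and 14.9 and 4.17 CPM, a ratio of 3.58 (2.01 to 6.87), but 1 cell of the HDAC3 inhibitor library held 39.2% of its UMIs. The lower gene was Man2b2, with 21 and 23 UMIs and a ratio of 0.619 (0.326 to 1.17). Next to Cd68 stood Ctss (1.47, 1.24 to 1.75), Ctsd (1.43, 1.32 to 1.55), Man2b1 (1.29, 0.984 to 1.69) and Ctsh (1.27, 0.815 to 2.02). For Ctss, 1 cell of each library held 32.6% and 58.2% of the UMIs, and its log2 ratio was 1.24 without these cells and -0.64 with called doublets kept. In a small cluster of 21 and 14 cells Ctsd was 4526 and 276 CPM and Ctss 2022 and 118 CPM, and the part of that cluster in the ratios was not tested. The 11 monocyte/macrophage markers summed to 469 and 138 CPM in oligodendrocyte-like cells, with 11 and 8 of them present, and their part in these ratios was not tested. In the largest cluster alone the ratio was 0.773 (0.312 to 1.93) for Cd68, 0.903 (0.816 to 1.001) for Ctsd, 0.280 (0.208 to 0.373) for Ctss, 1.09 (0.780 to 1.52) for Man2b1 and 0.708 (0.395 to 1.27) for Ctsh. At the lower end stood Atp6v0c (0.705, 0.391 to 1.27), Ctsl (0.715, 0.652 to 0.784), Glb1 (0.746, 0.388 to 1.44) and Atp6v1b2 (0.841, 0.707 to 1.003). Npc1, highest in this class, had a ratio of 1.21 (1.10 to 1.33).

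Neutrophil-like cells held few UMIs of these genes, 27 of 33 were measured, and their median log2 ratio was 0.11 against 0.07 over all genes. Of them 16 were higher and 11 lower, where 57.7% and 42.3% of genes were. Here 5 members were at least 1.5-fold higher, where 12.6% of 5283 genes were, and 1 was lower, where 8.31% were. With at least 100 UMIs 2 members were higher and 0 lower by that much, beside 6.79% and 2.05% of 2150 genes. The higher ones were Ctsa (47 and 29 UMIs, ratio 2.61, 1.61 to 4.30), Atp6v0c (12 and 9 UMIs, 2.15, 0.830 to 5.77), Ctsc (27 and 21 UMIs, 2.07, 1.13 to 3.85), Ctss (106 and 84 UMIs, 2.03, 1.51 to 2.74) and Ctsb (193 and 159 UMIs, 1.95, 1.58 to 2.43). The lower one was Npc1, with 7 and 23 UMIs and a ratio of 0.490 (0.178 to 1.18). In the cluster rich in Camp and Ngp, granule genes of immature neutrophils, Ctss was 116 and 36.3 CPM and Ctsb 234 and 101 CPM. In the other cluster, rich in Retnlg, Ctss was 98.8 and 116 CPM and Ctsb 127 and 113 CPM, with ratios of 0.852 (0.508 to 1.41) and 1.12 (0.696 to 1.81). Cells of the Camp-rich cluster were 40.7% and 56.4% of the class. The 9 microglia markers summed to 28.3 and 20.2 CPM in neutrophil-like cells, with 4 and 5 present, and the 7 border-associated macrophage markers to 16.8 and 14.96 CPM, with 2 present in each. Erythroid markers summed to 36.6 and 1965 CPM. The part of these in the ratios was not tested. With cells classed by their own markers Ctsb and Ctss were lower, at log2 ratios of -0.59 and -0.78. Tfeb, Atp6ap1, Atp6v1a and Cd63, the next lowest, had ratios from 0.675 to 0.886, and each interval held 1.

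Schwann-like cells had 23 measured members with a median log2 ratio of 0.00442 against 0.029 over all genes. Of these 12 were higher and 11 lower, where 53.0% and 47.0% of genes were. The 3 members at least 1.5-fold higher (10.7% of 5907 genes) were Ctsc (2.06, 1.17 to 3.72), Mitf (1.59, 0.705 to 3.62) and Ctsb (1.54, 1.18 to 2.02). The 3 at least 1.5-fold lower (10.1%) were Ctss (0.599, 0.366 to 0.956), Ctsl (0.658, 0.543 to 0.795) and Atp6v1a (0.662, 0.314 to 1.33). Cd63 (1.48, 1.29 to 1.70) and Ctsa (1.31, 0.840 to 2.05) came next at the upper end, and Hexa (0.675, 0.405 to 1.10) at the lower end, followed by Grn (0.688, 0.352 to 1.29) and Lgmn (0.688, 0.288 to 1.54) with the same ratio. With at least 100 UMIs 1 member was higher (Ctsb) and 1 lower (Ctsl) by that much, beside 3.36% and 3.05% of 1607 genes. Ctsl had 164 and 343 UMIs. Microglia markers summed to 9.17 and 48.3 CPM in these cells, with 3 and 7 of 9 present, and erythroid markers to 29.8 and 1206 CPM, and their part in the ratio of Ctss was not tested. With cells classed by their own markers the log2 ratio of Ctsb was -0.25.

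Other genes of the lysosome gave a frame for the members. In microglia-like cells 24 of 30 measured other hydrolases were lower, where 53.4% of all measured genes were, and their median log2 ratio was -0.19. Of these hydrolases 15 had an interval below 1, a count not made over all genes. Asah1, which encodes acid ceramidase, had 271 and 318 CPM, which gives 0.852 (0.797 to 0.912) as its ratio. Sgsh, a heparan sulfatase, was the only one past 1.5-fold, at 2.16 (1.19 to 4.02) from 33 and 19 UMIs. The other pump subunits were near equal, 5 higher and 7 lower with a median of -0.03. Of 14 other membrane proteins and channels 4 were higher and 10 lower, with a median of -0.05. Atp6v0b, Atp6v1f and Atp6v1g1 had ratios of 1.02 (0.970 to 1.06), 1.12 (1.06 to 1.19) and 1.02 (0.958 to 1.08), and Laptm5, Laptm4a and Scarb2 ratios of 0.972 (0.943 to 1.003), 1.16 (1.08 to 1.251) and 0.936 (0.860 to 1.02). Of the cystatin and stefin inhibitors of cathepsins, Cst3 had 18050.5 and 19039 CPM (0.948, 0.940 to 0.956), Cstb a ratio of 1.01 (0.959 to 1.07) and Cst7 one of 0.834 (0.770 to 0.904). In monocyte/macrophage-like cells the other hydrolases had a median log2 ratio of -0.06 and none was past 1.5-fold, while Cstb (1.18, 1.15 to 1.21) and Cst7 (1.41, 1.06 to 1.88) stood above 1. Osteoclast genes, listed because Atp6v0d2, Acp5 and Ctsk are used by osteoclasts, were scarce, with 3 of 8 measured in microglia-like and 2 of 8 in monocyte/macrophage-like cells. Nfatc1, which drives osteoclast formation, had ratios of 0.977 (0.784 to 1.22) and 0.992 (0.796 to 1.24) in these classes, and Tnfrsf11a, which encodes its upstream receptor RANK, 1.17 (0.981 to 1.39) and 1.06 (0.868 to 1.29). In microglia-like cells Itgb3 had 0.813 (0.564 to 1.16).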

How the data were processed

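Single cells were read with a 10x 3' version 3 kit, 1 library per group, and 33 of 31053 genes are members. The authors deposited UMI counts per barcode and gene, written, per the file headers, by Cell Ranger 3.0.2; per the submitters' processing notes, the genome was mm10 and the tools include Cell Ranger and Seurat. Whether filtering beyond Cell Ranger was done, and how reads matching several genes were treated, are not given in the sources used here. 10x 3' counts read RNA ends, so levels are compared for the same gene and not between genes.

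Cells needed 500 genes, 1000 UMIs and a mitochondrial share of no more than 15% (448 and 353 barcodes failed), and Scrublet in scanpy 1.11.5 called 21 and 6 doublets, which were left out. After scaling to 10000 UMIs and taking logs, 30 principal components of 2000 variable genes were found over both libraries. Leiden clustering (leidenalg 0.10.2, igraph 0.11.9, resolution 1) used 20 neighbours per cell from scikit-learn 1.9.0. A cluster took the name of the best of 18 marker lists (129 genes) if its mean log2 ratio to the median cluster reached 2.5, led the next list by 0.5 and rested on 3 or more markers. Clusters of at least 1.5 times the library's median depth with a second list scoring at least 4 stayed unnamed, and so did clusters led by markers of another class or of low depth with no own marker on top. These rules were set after the clusters were seen. An alternative classed each cell by its own markers, where the mean log level of 1 list was at least 1.25 times that of the next and at least 3 of its markers were seen. T and NK lists were joined, and no cluster took the dendritic cell, neuron or erythroid name.

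UMIs were summed per library and class. With 1 library per group no p-value was computed. Intervals were computed with scipy 1.17.1, a count of 0 leaves room for 3 UMIs, and PCR was corrected by UMIs. The text names the 5 highest and 5 lowest ratios per compared class, every member at least 1.5-fold apart, and from each companion list up to 3 abundant genes and every measured gene at least 1.5-fold apart, except some genes that are not reported here. The calculation of ratios was tested on simulated data. These were Poisson counts without spread between cells, so they checked the calculation alone. Gene coordinates are from GENCODE on mm10, promoters from RefSeq on GRCm38.p6. Members, lists and markers were chosen with earlier results of these data known. Other settings were tried for the cell filter, doublets, cluster resolution, classing, cluster, cell weight, depth, minimum UMIs and total. For the cell filter and the doublets, cells were clustered and named anew.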

Additional observations from a re-analysis of the deposited data

Results flagged for a closer look

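For 8 genes the microglia-like ratio and the monocyte/macrophage-like ratio lay on opposite sides of 1 with neither interval holding 1. These were, in the order microglia-like, monocyte/macrophage-like, Ctsb (0.811 and 1.02), Ctsc (1.10 and 0.872), Ctsd (0.869 and 1.04), Ctsl (0.713 and 1.09), Ctsz (0.960 and 1.04), Grn (0.855 and 1.09), Cd63 (0.944 and 1.10) and Cd68 (0.831 and 1.08). In the Gpnmb-rich cluster alone, which leaves out the Plac8-rich cells, the second ratio was 0.970 (0.961 to 0.979) for Ctsb, 0.977 (0.922 to 1.04) for Ctsc, 0.994 (0.986 to 1.001) for Ctsd and 1.01 (0.991 to 1.03) for Ctsz, so the opposition did not hold there for these 4. Ctsl, Grn, Cd63 and Cd68 stayed above 1 there, with ratios from 1.04 to 1.05 and intervals above 1, but Ctsl had a log2 ratio of -0.27 with cells classed by their own markers. Over the whole class, for 7 of the 8 the microglia-like ratio was the lower one, and Ctsc was the exception. The difference between the classes was not tested, since each class has 1 library per group, and both classes come from the same libraries. How many of all genes lie on opposite sides by this rule was not computed, and intervals narrow as UMIs rise. In microglia-like cells Cd63 kept its sign in 7 of 10 other settings, with a highest log2 ratio of 0.013.

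Clusters left without a name also held these genes, and no comparison above used them. Their summed share of UMIs was 0.278% and 0.268% in a cluster led by haemoglobin and endothelial genes (100 and 45 cells), 0.708% and 0.590% in one led by Scn7a (31 and 48 cells), and 1.19% and 1.12% in one led by Plac8 and Cybb (29 and 8 cells). A cluster led by the neutrophil genes Camp and Ngp together with the macrophage genes C1qa and C1qc (54 and 43 cells) had 3.10% and 2.23%, with 8692 and 5907 CPM of Ctsd. Its cells had over 1.5 times the median depth of their library, and whether they are doublets was not tested.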

How the results depend on the processing

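No paired analysis was possible because each group has 1 library and no test was made. Values for moved results follow. Counts are of members higher or lower by 1.5-fold or more, and summed share is the ratio of shares. The cause was not tested. Except at 100 UMIs or more, the share of all genes past 1.5-fold was not computed in these settings. These counts thus do not set the members apart. Classing by own markers gave 1 lower and a summed share of 0.895 in microglia-like, 0.990 in monocyte/macrophage-like, 2 higher, 6 lower and 0.814 in neutrophil-like, and 1 higher, 8 lower and 0.949 in Schwann-like cells. The largest cluster alone gave 1 lower in microglia-like, 0.970 in monocyte/macrophage-like, 2 lower in endothelial-like, a median log2 ratio of -0.22, 0 higher, 3 lower and 0.915 in oligodendrocyte-like, and 2 higher, 2 lower and 0.969 in neutrophil-like cells. Thinning to 2000 UMIs gave 0 lower and 0.938 in microglia-like, 1 higher, 0 lower and 1.03 in monocyte/macrophage-like, 1 higher and 1 lower in endothelial-like, 2 higher, 0 lower and 0.969 in oligodendrocyte-like, and 2 higher, 0 lower and 1.07 in neutrophil-like cells. Weighting each cell alike gave 0.927 in microglia-like, 1 higher, 0 lower and 1.03 in monocyte/macrophage-like, 1 higher and 2 lower in endothelial-like, 0 higher, 2 lower and 0.971 in oligodendrocyte-like, and 3 higher and 3 lower in neutrophil-like cells. Keeping doublets gave 4 higher and 1.11 in endothelial-like, and 0 higher, 3 lower and 0.943 in oligodendrocyte-like cells. Resolution 2 gave 1 lower in endothelial-like and 0 lower in neutrophil-like cells. The stricter filter gave 5 higher and 1.01 in oligodendrocyte-like cells. At 100 UMIs or more, 0 were higher and 0 lower in oligodendrocyte-like, 2 and 0 in neutrophil-like, and 1 and 1 in Schwann-like cells. Leaving out the cell with most UMIs of each gene, a setting added after seeing the data, gave 2 higher in oligodendrocyte-like and 1 higher in Schwann-like cells. Reversed log2 ratios were -0.37 for Cd68 in oligodendrocyte-like and -0.23 for Ctss in neutrophil-like cells in the largest cluster, and with own markers -0.59 for Ctsb and -0.78 for Ctss in neutrophil-like and -0.25 for Ctsb in Schwann-like cells. Depth limits neutrophil-like and Schwann-like cells most, with 27 and 23 of 33 members measured. A total without mitochondrial, ribosomal and haemoglobin genes shifted all log2 ratios by 0.033 in microglia-like and -0.033 in monocyte/macrophage-like cells, and by smaller amounts in the 4 others.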

Other observations

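Genes that sort or regulate lysosomal enzymes were also read in the compared classes. Mannose 6-phosphate and sortilin sorting genes, which carry new hydrolases to the lysosome, had 6 of 6 measured in both phagocyte classes (microglia-like first, then monocyte/macrophage-like), with median log2 ratios of -0.16 and 0.12 and none past 1.5-fold. M6pr, the cation-dependent receptor, had 134 and 138 CPM in microglia-like and 129 and 119.6 CPM in the latter class. Genes of nutrient signalling at the lysosome had 9 of 13 and 9 of 14 higher in the same classes, beside 46.6% and 49.1% of all measured genes. Lamtor2 and Lamtor4, parts of the complex that anchors Rag GTPases, had ratios of 1.22 (1.10 to 1.34) and 1.10 (1.02 to 1.18) in the former class and 1.204 (1.13 to 1.28) and 1.24 (1.17 to 1.30) in the latter. Rragd, a Rag GTPase gene, was the only one past 1.5-fold in microglia-like cells, with 21 and 51 UMIs and a ratio of 0.512 (0.292 to 0.866).

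In the other classes, companion genes past 1.5-fold were few or shallow. Endothelial-like cells had Abca2 (0.638, 0.418 to 0.969) and Cln3 (0.589, 0.342 to 1.004). Oligodendrocyte-like cells had Itgb3 (1.64, 0.811 to 3.53) and Cst3, the secreted cystatin C, at 293 and 456 CPM and a ratio of 0.641 (0.597 to 0.690). Cst3 was also lower in Schwann-like cells, at 344 and 652 CPM and 0.528 (0.434 to 0.639), while microglia-like cells held 18050.5 and 19039 CPM. In neutrophil-like cells the higher genes were Gm2a (1.98, 1.45 to 2.71), Gla (1.70, 0.844 to 3.43), Scarb2 (1.82, 1.08 to 3.09), Stfa1 (1.75, 1.35 to 2.28) and Nfatc1 (1.56, 0.929 to 2.62), and the lower ones Tmem106b (0.371, 0.158 to 0.780), Tpcn2 (0.663, 0.232 to 1.68), Atp6v0a2 (0.604, 0.247 to 1.35) and Tfe3 (0.651, 0.434 to 0.958). Stfa1 has near-identical neighbours, so its level is uncertain. In Schwann-like cells Lamtor4 (1.63, 1.09 to 2.43) was higher, and Ctsf (0.631, 0.279 to 1.34), Cln3 (0.598, 0.254 to 1.31), Laptm4b (0.579, 0.219 to 1.39), Ctns (0.306, 0.0753 to 0.928) and Gnptg (0.509, 0.220 to 1.09) lower.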
